A study of Drosophila melanogaster with 3 samples.

Results

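The genes described here encode the general machinery that starts transcription: subunits of Mediator, the TBP-associated factors (TAFs) of TFIID, the other factors named TFII, and subunits of RNA polymerases I, II and III. They were taken by symbol from the Ensembl protein-coding genes (MED, Taf, TfII and Polr symbols, with the older RpI, RpII and RpIII names), which gave 79 of 13945 genes. These were 25 Mediator genes, 15 TAF genes, 9 TFII genes, 7 genes of RNA polymerase I, 13 of RNA polymerase II and 10 of RNA polymerase III. For each gene the strongest peak with its summit within 1 kb of any of its transcription start sites (TSSs) was taken from the peak lists. The rule reads symbols only.

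Mediator carries signals from DNA-bound activators and repressors to RNA polymerase II. Its head and middle modules contact the polymerase, and its tail contacts many activators. TFIID, made of the TATA-binding protein and the TAFs, recognises core promoters, and TFIIA and TFIIB help to place the polymerase there. RNA polymerase I makes ribosomal RNA, RNA polymerase II makes messenger RNA, and RNA polymerase III makes transfer RNA and other small RNAs. Some subunits are used by more than 1 of these enzymes.

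The study assayed where Jumeau, a forkhead transcription factor encoded by jumu, lies on chromatin, by chromatin immunoprecipitation and sequencing (ChIP-seq). The samples were 3 biological replicates of whole Drosophila melanogaster embryos, 0 to 24 h old and of both sexes, from the jumu-MiMIC-GFP strain. In that strain an intron of jumu holds an added eGFP exon, Jumeau is made with eGFP fused to it, and an antibody against GFP was used on chromatin sonicated to 200 to 800 bp. There was 1 group, with no other genotype, stage or treatment, and no control sample was analysed here. What the antibody or open chromatin alone would give at a promoter was therefore not separated from binding of Jumeau. In whole embryos, fewer cells with the protein at a site and less of it per cell cannot be told apart.

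The optimal list, which the authors thresholded for reproducibility, held 3845 peaks, whose signal had a median of 180.6 and a minimum of 112.0. The relaxed pooled list held 29812 peaks and includes background, and exactly 3845 of its peaks reached the lowest optimal signal. A gene is called bound when an optimal summit lies within 1 kb of a TSS, which assigns the peak by position only. Signal is the authors' value for each peak, without a stated unit. Sequencing depth is unknown, so replicates were set side by side by relative signal, the signal at a peak over that replicate's median at matched optimal peaks (74.8, 58.1 and 54.5 in replicates 1, 2 and 3).

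The sequences at the summits of 8 bound genes are shown first, because 5 of them are the strongest peak of a complex with a stretch free of UTR sequence at the summit. MED27 was added as the second-strongest Mediator peak, Polr2B as a peak with the full forkhead word and Polr3D as a gene of RNA polymerase III. Each runs 5′ to 3′ on the strand of the named gene, in dm6. Capitals mark matches, on either strand, to the DRE, the BEAF-32 core, motif 6, motif 7 or the forkhead core, which are spelled out with the word counts.
MED30, chr3L:654233-654333, minus strand: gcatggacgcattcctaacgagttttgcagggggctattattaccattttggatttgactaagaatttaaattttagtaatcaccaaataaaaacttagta
MED27, chr3R:5654917-5655017, plus strand: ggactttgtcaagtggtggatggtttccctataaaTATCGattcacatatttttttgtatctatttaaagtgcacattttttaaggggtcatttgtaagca
Taf4, chr3L:16113611-16113711, plus strand: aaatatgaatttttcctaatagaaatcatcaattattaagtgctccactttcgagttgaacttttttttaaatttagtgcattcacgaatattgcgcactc
TfIIA-S, chr3R:23891061-23891161, minus strand: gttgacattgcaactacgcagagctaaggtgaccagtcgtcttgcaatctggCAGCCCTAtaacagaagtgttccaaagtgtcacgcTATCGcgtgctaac
Polr1D, chr2L:19133701-19133801, minus strand: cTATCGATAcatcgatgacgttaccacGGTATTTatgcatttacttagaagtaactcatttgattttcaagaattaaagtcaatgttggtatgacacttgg
Polr2F, chr3R:5371745-5371794, plus strand: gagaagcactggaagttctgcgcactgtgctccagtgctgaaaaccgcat
Polr2B, chr3R:14125660-14125760, plus strand: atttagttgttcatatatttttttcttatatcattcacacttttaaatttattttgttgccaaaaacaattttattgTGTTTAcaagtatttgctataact
Polr3D, chr3L:18109656-18109756, minus strand: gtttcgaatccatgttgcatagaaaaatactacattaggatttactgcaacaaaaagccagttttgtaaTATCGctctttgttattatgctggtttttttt
The MED30, Taf4 and Polr2F stretches hold none of these words, although their peaks are among the strongest of the 79 genes. The Polr1D stretch holds a DRE close to its 5′ end, and the Polr2B stretch holds the forkhead core close to its 3′ end.

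Of the 79 genes, 28 were bound (35.4%, 95% Wilson interval 25.8 to 46.4), against 22.4% of all protein-coding genes. RNA polymerase II had the highest share, 7 of 13 genes (53.8%, interval 29.1 to 76.8). The TFII factors followed with 4 of 9 (44.4%, 18.9 to 73.3) and Mediator with 10 of 25 (40.0%, 23.4 to 59.3). RNA polymerase III had 3 of 10 (30%, 10.8 to 60.3), the TAFs 3 of 15 (20%, 7.05 to 45.2) and RNA polymerase I 1 of 7 (14.3%, 2.57 to 51.3). The intervals of all 6 complexes overlap one another, and each contains the share over all genes except that of Mediator and that of RNA polymerase II. They treat genes as independent and cover counting error only. By symbol, the subunits used by all 3 polymerases were counted with RNA polymerase II, and 3 of these 5 genes were bound. The 2 shared by RNA polymerases I and III were counted with RNA polymerase I, and 1 was bound.

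The order of the complexes was also read from the 3845 strongest peaks of each replicate. All 79 genes gave 34.2%, 32.9% and 34.2% in replicates 1, 2 and 3 (33.8% ± 0.731, SD, n = 3), against 22.5%, 21.3% and 22.9% of all protein-coding genes. Each replicate thus placed the 79 genes above the share over all genes. Mediator gave 36.0%, 44.0% and 52.0%, and RNA polymerase II 53.8%, 46.2% and 38.5%. The TFII factors gave 44.4%, 44.4% and 33.3%. RNA polymerase II led in replicates 1 and 2 and Mediator in replicate 3, and the TFII factors stood above Mediator in replicates 1 and 2, so the replicates did not give these 3 complexes 1 order. The TAFs gave 20%, 13.3% and 26.7%, and RNA polymerase III gave 30%, 20% and 10%. RNA polymerase I gave 14.3% in every replicate, 1 gene of 7. No test over the replicates was made, since an exact paired permutation test of 3 pairs cannot go below p = 0.25.

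**Figure D1:**
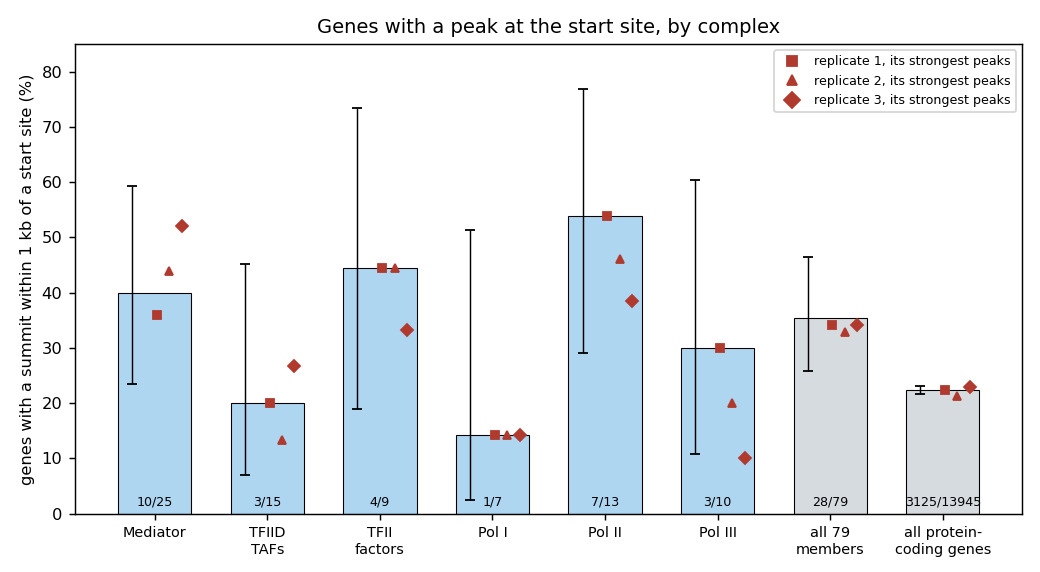
Percentage of genes with a peak summit at most 1 kb from a TSS (vertical axis) for each complex, for all 79 genes and for all protein-coding genes. Bars give the optimal list with the 95% Wilson interval and the count printed in each bar, and markers give the 3845 strongest peaks of each replicate; the markers of Mediator, the TFII factors and RNA polymerase II cross between replicates.

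When the calls were restricted, the gap to all genes changed in size. A summit within 500 bp was found for 27 members (34.2%, against 19.7% of all genes), and one within 5 kb for 51 (64.6%, against 40.2%). Where the summit counted only if no other protein-coding gene started nearer, 14 members remained (17.7%, against 15.8%). With only the 1922 strongest optimal peaks, 16 members had a peak (20.3%, against 12.7%). Where a peak also had to rank with the strongest of each of the 3 replicates, 18 members were left (22.8%, against 14.2%). Leaving out replicate 1, 2 or 3 and asking for the other 2 gave 20, 21 and 23 members (25.3%, 26.6% and 29.1%), against 15.3%, 16.5% and 16.5% of all genes. The RNA polymerase III count of 3 fell to 0 without replicate 1 and to 1 without replicate 2 or 3, the RNA polymerase II count of 7 fell to 4 without replicate 1, and the TFII count of 4 fell to 2 without replicate 2.

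The strongest peaks lay at Mediator genes and at Polr2H and Polr2F. By symbol these last were counted with RNA polymerase II, but their subunits are used by all 3 polymerases. Among genes particular by name to RNA polymerase II the strongest peak was 279, at Polr2B, below TfIIA-S (371) and Taf4 (359). The median optimal signal of the bound genes was 294 for Mediator, 264 for RNA polymerase II, 220.3 for the TAFs, 191 for the TFII factors and 130.2 for RNA polymerase III, with the only RNA polymerase I gene at 253. Over all 28 it was 237, against 197 over all 3125 bound protein-coding genes. None of the 28 was among the 100 strongest optimal peaks, 6 were among the 500 strongest (21.4%) and 10 among the 1000 strongest (35.7%). Of all bound protein-coding genes 3.58%, 16.6% and 30.7% had a peak in these ranges. In relative signal the median was 1.57 ± 0.150 for Mediator, 1.39 ± 0.0852 for RNA polymerase II and 0.624 ± 0.155 for RNA polymerase III (SD, n = 3), against 1.10 ± 0.0131 over all bound genes. RNA polymerase III had the lowest median of the 6 complexes in each replicate, at 0.792, 0.594 and 0.486. The subunits it shares with the other enzymes were not counted in it.

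**Figure D2:**
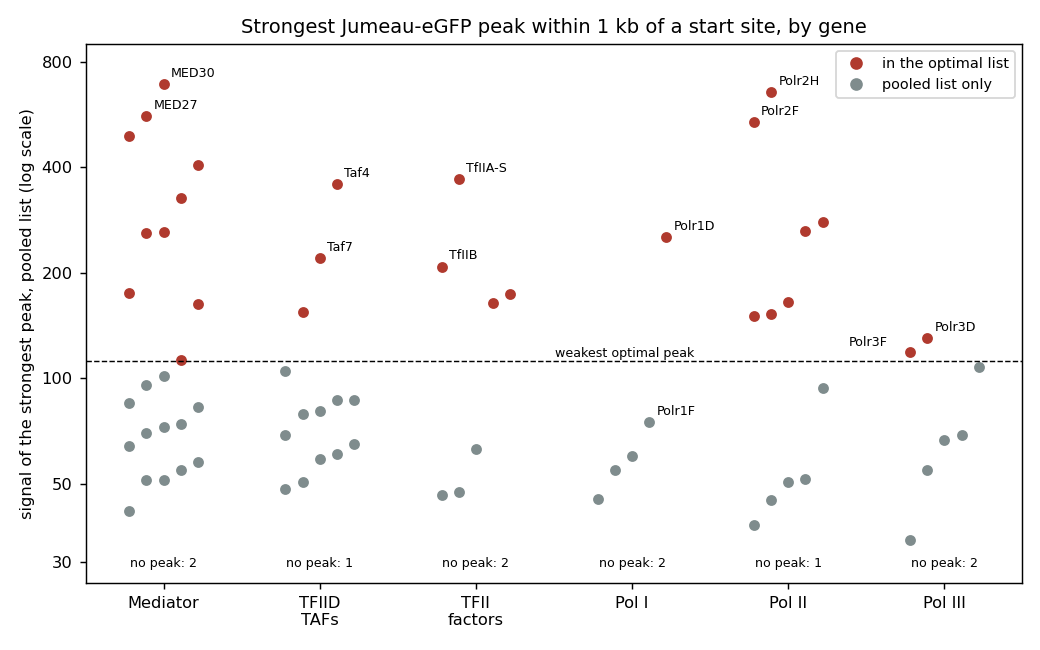
Signal of the strongest peak within 1 kb of a start site (pooled list, log scale, vertical axis) for 68 of the 69 genes that have one, by complex. Red points are optimal peaks and grey points are in the relaxed pooled list only; the dashed line is the lowest optimal signal, 112.0, and the number of genes with no peak stands below each column. The red points reach 692 in Mediator and 656 in RNA polymerase II, while those shown for RNA polymerase III lie at 130.2 and 119. The point at 656 is Polr2H, whose subunit is used by all 3 polymerases.

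In the Mediator head, which contacts RNA polymerase II, 3 of 10 genes were bound. MED30, a subunit found in animals, had the strongest peak of all 79 genes (3L, 654162 to 654397, signal 692). Its signal was 277, 198 and 209 in replicates 1, 2 and 3, and its relative signal was 3.70, 3.41 and 3.84. The summit lay 194 bp upstream of MED30 and only 80 bp from the start of Rev1, which encodes a translesion DNA polymerase. MED6, a conserved head subunit, had a peak of 407 (3R, 9767738 to 9767891) whose summit lay in a gap of 19 bp between the starts of MED6 and Naa80, an acetyltransferase gene. Its relative signal of 1.82, 2.35 and 2.45 was lowest in replicate 1. MED17, the scaffold of the head, had a weaker peak of 163 (3R, 18188580 to 18188999), 282 bp upstream and 83 bp from CG12321. Relative signal at MED17 was 0.724, 0.714 and 1.25, so that only replicate 3 placed it above the median peak.

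In the middle module 4 of 7 genes were bound. MED4 had a peak of 327 (3L, 7250449 to 7250868), 132 bp upstream, with no other protein-coding start nearer. Its relative signal of 1.75, 1.47 and 1.81 was above the median in each replicate. MED7 had a peak of 259 (3R, 10760862 to 10761281), 40 bp upstream and 238 bp from the start of Cap-H2, a condensin gene. MED31 had a peak of 175 (3R, 4641643 to 4642062), 110 bp upstream but 15 bp from CG9775. MED21, which forms a hinge with MED7, had the weakest peak of the 28, with a signal of 113 (3L, 25115833 to 25116252). Relative signal at MED21 was 0.446, 0.853 and 0.731, below the median peak in all replicates.

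In the tail and the connecting subunit MED26, 3 of 8 genes were bound. MED27 had a peak of 559.7 (3R, 5654852 to 5655074), between its own start, 172 bp away, and that of elm, 106 bp away. The relative signal at MED27 was 2.89, 2.97 and 3.16, a narrow range. MED15, the tail subunit that activators bind in yeast and mammals, had a peak of 493 (2L, 472398 to 472573). The MED15 summit lay 542 bp upstream, the farthest of the 28 from its own start, and 271 bp from CG4297. The relative signal at MED15 was 2.77, 2.31 and 2.70. MED16, another tail subunit, had a peak of 261 (2R, 22182885 to 22183304), 43 bp upstream with its own start nearest, and relative signals of 1.39, 1.38 and 1.35 that were nearly equal.

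The remaining 15 Mediator genes had weaker peaks or none. Pooled peaks below the optimal list were found at MED25 (101.4), MED9 (96.0), MED23, MED19, MED18, MED8, MED1, MED28, MED14, MED20, MED26, MED22 and MED11 (41.8). MED10 and MED24 had no pooled peak within 1 kb. Thus 23 of 25 Mediator genes had a pooled peak. Over the 79 genes the count was 69 (87.3%), against 63.4% of all protein-coding genes.

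The TAFs, the largest part of TFIID, were bound at 3 of 15 genes. Taf4, a scaffold of TFIID that contacts activators, had the strongest TAF peak (3L, 16113585 to 16113735, signal 359). Its signal was 136, 108 and 122 in replicates 1, 2 and 3, and its relative signal 1.82, 1.86 and 2.23. The summit lay 129 bp upstream of a Taf4 start and more than 1 kb from the start of any other protein-coding gene. Taf7, a partner of Taf1, had a peak of 220.3 (3R, 7907343 to 7907762), 85 bp upstream, with relative signals of 1.18, 1.26 and 1.10. Taf13, a histone-fold subunit that pairs with Taf11, had a peak of 155 (2L, 20093783 to 20094202), 144 bp upstream but 21 bp from nesd. Relative signal at Taf13 was 0.701, 0.602 and 1.32, with replicate 3 apart from the others.

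The other TAF genes lay below the optimal list. The pooled peak of Taf1, the largest subunit, had a signal of 105, and those of Taf10, Taf10b, Taf8, Taf5, Taf11, Taf12, Taf9, Taf6, Taf2 and Taf3 fell between 86.7 and 48.3. Taf10 and its paralogue Taf10b start 45 bp apart on opposite strands and share 1 pooled peak of 86.7, so their values are not independent. Taf12 had a pooled peak of 65.02, and its paralogue Taf12L had none. MED20 likewise shared a pooled peak of 54.6 with Trf, a relative of the TATA-binding protein that starts 47 bp away.

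Among the TFII factors the bound genes were those of the large and the small subunit of TFIIA, of TFIIB and of TFIIS. TfIIA-S, the small subunit of TFIIA, had a peak of 371 (3R, 23891039 to 23891195), 51 bp upstream, with no other protein-coding start within 1 kb. Its signal was 132, 127 and 103 in replicates 1, 2 and 3 and its relative signal 1.77, 2.18 and 1.89. The paralogue TfIIA-S-2 had no pooled peak. TfIIA-L, the large subunit, had a peak of 174 (3R, 27253039 to 27253458), 181 bp upstream of one of its starts and 67 bp from pll, the kinase gene of the Toll pathway. That peak was matched in replicates 1 and 2 at relative signals of 1.01 and 1.04, and had no match within 100 bp in replicate 3. It was the only one of the 28 not matched in all 3 replicates. Replicate 3 did hold a peak of 59.4 with its summit within 1 kb of a TfIIA-L start. A second optimal peak at TfIIA-L, with a signal of 138, overlaps the first, and its summit lay 22 bp from a start.

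TfIIB, which bridges the TATA-binding protein and the polymerase, had a peak of 208 (2L, 10430772 to 10431191). Its summit lay 356 bp upstream and 64 bp from Bug22, a cilium gene. Relative signal at TfIIB was 1.30, 1.25 and 0.641, lowest in replicate 3. TfIIS, which rescues arrested RNA polymerase II, had a peak of 164 (2L, 15060611 to 15061030), 64 bp upstream with its own start nearest, at 0.703, 0.794 and 0.998 of the replicate medians. TfIIFalpha (62.9), TfIIEalpha (47.3) and TfIIFbeta (46.4) had pooled peaks only, and TfIIEbeta had none.

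RNA polymerase II genes carried 7 optimal peaks. The strongest were at Polr2H and Polr2F, genes of subunits used by all 3 polymerases. Polr2H had a peak of 656 (3L, 21728634 to 21728980), with a signal of 247, 253 and 159 in replicates 1, 2 and 3 and a relative signal of 3.30, 4.35 and 2.92. The Polr2H summit lay 170 bp upstream and 44 bp from CG11247. Polr2F had a peak of 539.7 (3R, 5371620 to 5371870), 29 bp upstream of its start and more than 1 kb from any other protein-coding start. The relative signal at Polr2F was 2.74, 3.16 and 2.72. Polr2E, the third bound subunit of this kind, had a peak of 165 (2R, 10898946 to 10899365) at 1.11, 0.883 and 0.563 of the replicate medians. Of the other shared subunits, Polr2L had a pooled peak of 50.6 and Polr2K none, so 3 of 5 were bound.

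The bound genes of subunits particular by name to RNA polymerase II were Polr2B, Polr2J, Polr2C and Polr2A. Polr2B, the second-largest subunit, had a peak of 279 (3R, 14125500 to 14125919), 81 bp upstream and 162 bp from 140up, at relative signals of 1.51, 1.29 and 1.61. Polr2J, which pairs with Polr2C in the assembly platform, had a peak of 264 (2L, 17410367 to 17410786), 171 bp upstream and 64 bp from CG15141. Its relative signal was 1.41, 1.66 and 0.962. Polr2C had a peak of 152 (2L, 13832965 to 13833384), 70 bp from PolG2, a gene of mitochondrial DNA replication. Polr2C varied most among these, at 0.783, 0.440 and 1.46. Polr2A, the largest subunit, whose C-terminal repeats are phosphorylated during transcription, had a peak of 150.3 (X, 11570298 to 11570717), 182 bp upstream and 113 bp from CG11699. Polr2A was at 0.763, 1.15 and 0.407, lowest in replicate 3, where Polr2C was highest. Polr2D (93.9), Polr2I (51.7), Polr2L, Polr2G (44.9) and Polr2M (38.1) had pooled peaks only.

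RNA polymerase I had 1 bound gene, Polr1D, whose product is a subunit of both RNA polymerases I and III. Its peak of 253 (2L, 19133541 to 19133960) lay 268 bp upstream and 65 bp from brat, a gene of a translational repressor. The signal at Polr1D was 81.2, 85.3 and 98.0 and the relative signal 1.09, 1.47 and 1.80 in replicates 1, 2 and 3. Polr1C, the other subunit shared by these 2 enzymes, had no pooled peak, nor had Polr1H. Polr1F (75.0), Polr1A (59.9), Polr1E (54.7) and Polr1B (45.3) had pooled peaks only.

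RNA polymerase III had 3 optimal peaks, none among the 1922 strongest of the optimal list. Polr3D had a peak of 130.2 (3L, 18109496 to 18109915), 132 bp upstream and 108 bp from mus304, a DNA damage checkpoint gene, at 0.635, 0.831 and 0.427. Polr3F, which contacts the initiation factor TFIIIB in yeast and human, had a peak of 119 (3R, 22367090 to 22367509) at 0.792, 0.561 and 0.486. The Polr3F summit was the only one of the 28 downstream of the start, by 73 bp, with PyK 236 bp away. Both genes lay below the median optimal peak in every replicate.

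Other RNA polymerase III genes were lower. Polr3E, at 108.0, was the strongest pooled peak among the 79 genes outside the optimal list, just below the lowest optimal signal, while MED21 and Polr3F lay just above it. Polr3G (69.0), Polr3K (66.6) and Polr3A (54.9) followed, and Polr3B, at 34.6, was the weakest pooled peak of the 79 and was matched in no replicate. Polr3C and Polr3I had no pooled peak. The largest subunits of the 3 enzymes stood at 59.9 (Polr1A), 150.3 (Polr2A) and 54.9 (Polr3A), and the second-largest at 45.3 (Polr1B), 279 (Polr2B) and 34.6 (Polr3B). In both of these related trios the RNA polymerase II gene alone had an optimal peak.

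Replicates shared most of their strongest genes. Of the 27 genes matched in all 3 replicates, the 8 strongest were the same in each one: MED30, Polr2H, MED27, Polr2F, MED15, MED6, Taf4 and TfIIA-S. MED4 was also among the 10 strongest in each, so that 9 of the 10 were shared, and of the 5 strongest 4 were shared. Lower in the order some genes moved, such as Polr2C at places 21, 27 and 13 in replicates 1, 2 and 3. Of the 27 genes, 14 lay above the median optimal peak in all 3 replicates, 2 in 2 of them, 6 in 1 and 5 in none. The optimal list was made from these replicates, so the presence of a match is partly set by the list.

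**Figure D3:**
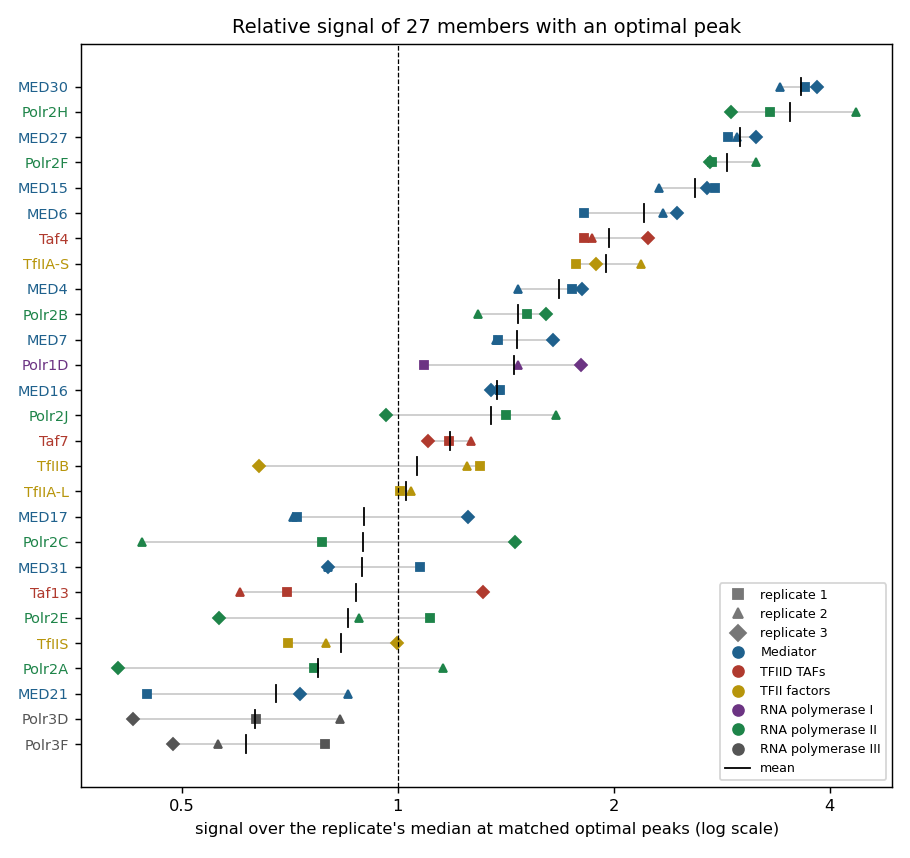
Relative signal (signal over the replicate's median at matched optimal peaks, log scale, horizontal axis) of 27 of the 28 bound genes. Markers are replicates, coloured by complex, the black tick is their mean and the dashed line is the median peak; MED30, Polr2H and MED27 lie near or above 3 and Polr3D and Polr3F below 1 in every replicate.

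Position was much alike across the 28 peaks. All 28 were distinct peaks in the promoter class, with a summit within 500 bp of an annotated start of some gene. Peaks were chosen within 1 kb of a start, which favours this class, and its share over all bound genes was not computed. The summit lay upstream of the nearest start of the member in 27 (96.4%, against 83.6% of all bound genes), at a median distance of 132 bp (144 bp over all bound genes). In 16 of the 28 another protein-coding gene started nearer to the summit, which left 12 with their own start nearest (42.9%, against 67.5% of all bound genes). By chromosome arm the bound genes were 7 of 15 on 2L, 2 of 10 on 2R, 7 of 19 on 3L, 11 of 25 on 3R, 1 of 8 on X and 0 of 2 on chromosome 4. Over all protein-coding genes the bound share was 20.8%, 21.5%, 22.1%, 24.0%, 24.0% and 11.3% on these arms in the same order.

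Many of these genes share a promoter region with a gene on the other strand. A gene transcribed away from the member started within 1 kb of 55 of the 79 (69.6%, against 36.2% of all protein-coding genes). Among those 55, 23 were bound (41.8%, interval 29.7 to 55.0), against 40.2% of all genes with such a neighbour. Of the 24 members without one, 5 were bound (20.8%, 9.24 to 40.5), against 12.3% of all such genes. The share of bound members was thus close to that of other genes where a head-to-head neighbour was present, taken over all gap widths. It was not close at each gap width, as given under the other observations. Without a neighbour the interval contains the share over all genes, but 24 genes are too few to show that the shares are alike. The split by neighbour was chosen after the data were seen.

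The strongest peaks of each replicate gave similar values. With a neighbour the members stood at 41.8%, 38.2% and 40.0% in replicates 1, 2 and 3 (40.0% ± 1.82) and all genes at 39.6% ± 0.804 (SD, n = 3). Without a neighbour the members stood at 16.7%, 20.8% and 20.8% (19.4% ± 2.41) and all genes at 12.4% ± 0.833. The 5 bound members without a neighbour were MED4, MED21, TfIIA-S, Polr2F and Polr2E.

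**Figure D4:**
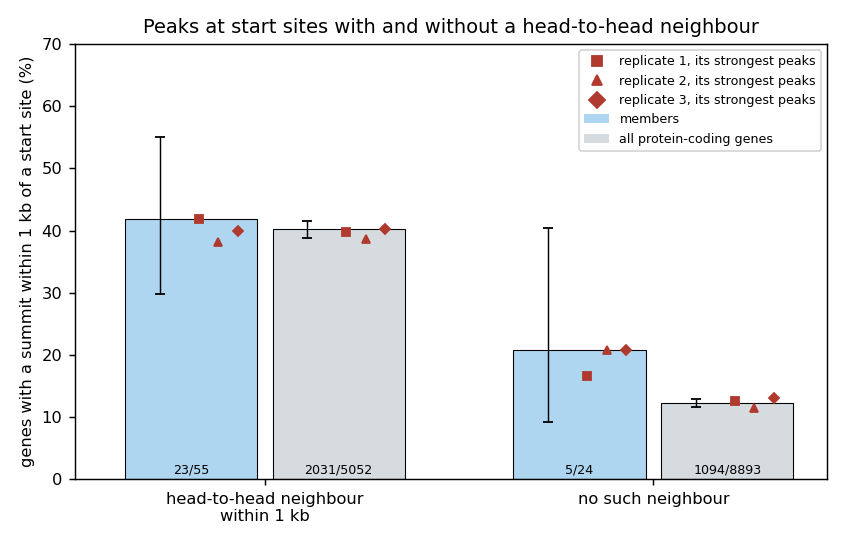
Percentage of genes with a peak summit at most 1 kb from a TSS (vertical axis), for genes with and without a gene starting within 1 kb on the other strand. Bars give the optimal list with the 95% Wilson interval for the 79 genes (blue) and all protein-coding genes (grey), and markers give the strongest peaks of each replicate; the bars on the left are at 41.8% and 40.2%.

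Of the 23 bound members with a head-to-head neighbour, the summit lay between the 2 starts in 18 and nearer to the neighbour in 15 (65.2%, against 46.3% of bound genes of this kind). The gap between the starts had a median of 274 bp and ran from 19 bp at MED6 and Naa80 to 899 bp at TfIIS and solo. Over all bound genes with such a neighbour the median gap was 284 bp. Polr2H and Taf13 had their summits beyond the start of the neighbour, inside its transcribed side, and Polr3F inside its own. Taf4 and TfIIA-L have several starts, and their peaks lay at another start than the one that faces the neighbour.

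**Figure D5:**
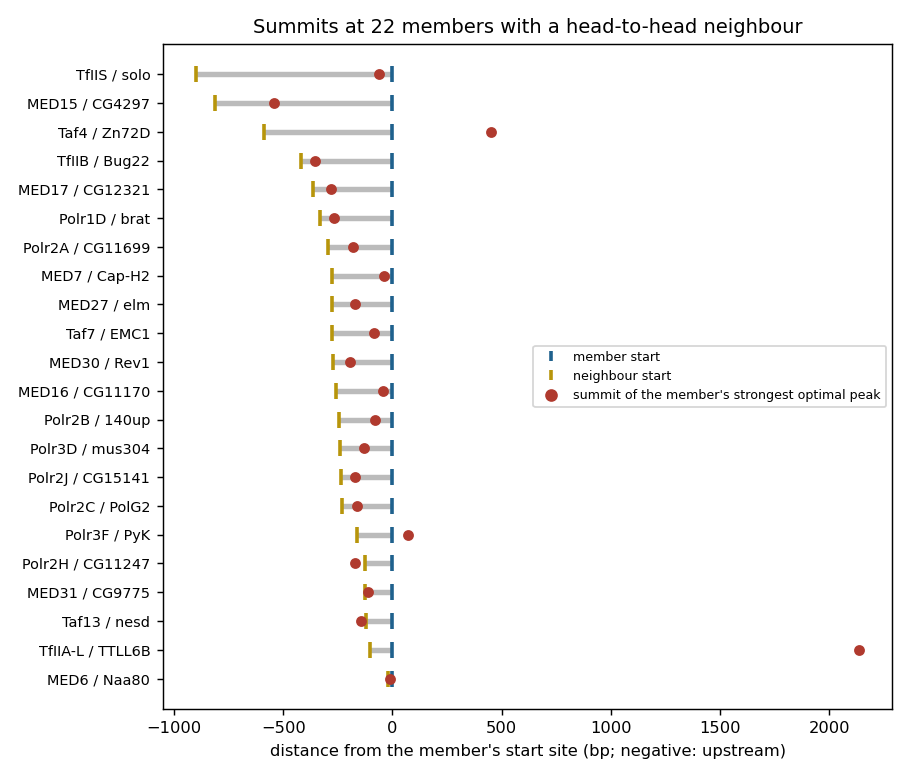
Position of the summit (red) of 22 of the 23 bound members with a head-to-head neighbour, in bp from the member's start that faces the neighbour (blue tick; negative is upstream), with the neighbour's start as a yellow tick. Summits lie on the grey gap between both starts in 17 of 22 rows; at Taf4 and TfIIA-L the peak belongs to another start of the gene.

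Short consensus words were counted from 50 bp before to 50 bp after each of the 28 summits, on both strands. The forkhead word GTAAACA was found at 2 (MED17 and Polr2B, 7.14%, interval 1.98 to 22.6). The share was 3.84% of the 2448 optimal peaks within 1 kb of a protein-coding start, which lies inside that interval. Its shorter core TAAACA, which every GTAAACA contains, was found at 7 (25%, interval 12.7 to 43.4), against 13.5%. These were MED16, MED17, Polr2B, Polr2C, Polr2E, TfIIA-L and TfIIB. By complex, 3 of 7 RNA polymerase II peaks held it (interval 15.8 to 75.0), 2 of 4 TFII peaks and 2 of 10 Mediator peaks. The peaks of the TAFs and of RNA polymerases I and III did not, but they are too few to show a lack. None of the 9 strongest of the 28 peaks held the core, and the next strongest, Polr2B, did. The cutoff of 9 was read from these data. With the core at 13.5% of the peaks near a start, 9 peaks are too few to show a lack.

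Words known from housekeeping promoters were also counted. The DRE, TATCGATA, was found at Polr1D alone (3.57%, against 4.82%), and CGATA, the BEAF-32 core that the DRE contains, at 8 (28.6%, 15.3 to 47.1, against 26.1%). Motif 6, GGTATTT, was found at 4 peaks (14.3%, against 4.45%), among them MED15, Polr1D and TfIIA-L. Motif 7, CANCNCTA, was at 3 (10.7%, against 10%). Motif 1, GGTCACACT, was at none (against 1.88%), and TCACAC, which it contains, was at 4 (14.3%, against 7.07%). The E-box CAGCTG was at none (against 5.47%), and 0 of 28 allows a share of up to 10.7%.

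Words known mainly from regulated promoters followed. GAGAG was at 1 peak (3.57%, against 10.3%), TATAAA at 3 (10.7%, against 14.2%) and the initiator TCAGT at Polr2A alone (3.57%, against 17.6%). With 100 bp to each side the initiator share of the 28 was 32.1%, against 33.3% of the optimal peaks near a start, and that of GAGAG 17.9%, against 23.1%. At that width GTAAACA was at 7.14%, against 7.52%, and TCACAC at 14.3%, against 14.8%. The forkhead core was at 35.7%, against 26.4%, and motif 6 at 21.4%, against 7.64%. With 30 bp to each side the BEAF-32 core was at 10.7%, against 17.2%, and the DRE at none, against 2.74%. These shares depend on the window. A match describes letters in a window and is not a binding site.

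Genes that work beside these complexes but carry other names were counted the same way. Of the TFIIH genes, which open promoter DNA and phosphorylate the polymerase, 6 of 9 were bound (66.7%, interval 35.4 to 87.9), against 22.4% of all protein-coding genes. All 6 have a head-to-head neighbour, and the 3 that lack one were not bound. Ssl1 had a peak of 2283 in that list, far above any of the 79, with its summit nearer to another gene than to Ssl1. The others were Tfb4 (219), Cdk7 (194), Tfb5 (171), Xpd (145) and hay (118). Of genes for elongation factors 13 of 20 were bound (65%, 43.3 to 81.9). These were 10 of the 15 with a head-to-head neighbour and 3 of the 5 without one. The strongest were Nelf-E (576), EloA (399.7) and Nelf-A (364), which encode pausing and Elongin subunits, with the summits nearer to RpL14, Rad60 and CG3337. Of the Integrator genes, which end many short transcripts, 8 of 14 were bound (57.1%, 32.6 to 78.6). They were 6 of the 11 with a head-to-head neighbour and 2 of the 3 without one. The strongest were IntS6 (508) and IntS9 (405), with the summits nearer to Rtel1 and CG43295. Among all genes with a head-to-head neighbour 40.2% were bound, and among those without one 12.3%.

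Of 5 genes for factors of RNA polymerases I and III, 3 were bound, against 22.4% of all protein-coding genes. Bdp1, a subunit of TFIIIB, had a peak of 1121 that lay nearer to another gene, and Brf, another TFIIIB subunit, had one of 555 with its own start nearest. The Mediator kinase module had 1 bound gene of 4, skd, at 228, with kto, Cdk8 and CycC in the pooled list only. Of 7 TBP-family and testis TAF genes 0 were bound, so the share could be as high as 42.9%. The pooled peaks were 82.7 at Tbp, 69.0 at Trf2 and 54.6 at Trf.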

How the data were processed

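Peak lists in dm6 were used, deposited by the authors for each replicate, for the pooled replicates (both relaxed, with background) and as an optimal list thresholded for reproducibility, per the deposited readme files. The peak signal is the value the authors deposited for each peak. The peak caller and its settings are not given in the labels or headers used here, nor is the depth. The deposited lists in the older build were not used. Gene models were Ensembl BDGP6.54, and sequences came from the RefSeq genome of the same assembly.

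Summits were assigned to genes with a start within 1 kb using Python 3.11.15 with numpy 2.4.6. Replicate summits were matched within 100 bp, taking the strongest. A head-to-head neighbour is a protein-coding gene on the other strand, transcribed away, starting within 1 kb. Shares carry 95% Wilson intervals, and a count of 0 was given a limit of 3 divided by the number of genes. With 1 group no test was made, and lists are described by counts and medians beside all genes. A single gene is counted in its complex but not reported here by itself. Every other bound gene was named, the 5 strongest of each complex with replicate values, and the rest in lists. The assignment was checked on simulated data. Members, lists and words were chosen with earlier results of these data known. Distance, list, threshold, scaling, matching and window were varied, and each replicate was left out in turn. The listed symbols Paf1, Tfb2, e(y)1 and rye matched no symbol of the annotation, so nothing was counted under these names. A gene meant by one of them may be counted under another symbol.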

Additional observations from a re-analysis of the deposited data

How the results depend on the processing

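Counts of bound genes stayed within 1.5 times the main count in 35 alternatives and not in 28. Against 28 bound genes in the main count, 51 were counted within 5 kb, 14 with no nearer start, 16 with only the 1922 strongest optimal peaks, 69 in the pooled list and 18 among the strongest peaks of all 3 replicates. Within 5 kb the TAFs reached 9, RNA polymerase I 5 and RNA polymerase III 6. With no nearer start Mediator fell to 4, RNA polymerase I to 0 and RNA polymerase II to 3. With the 1922 strongest peaks the TFII factors fell to 2, RNA polymerase II to 4 and RNA polymerase III to 0. In the pooled list Mediator had 23, the TAFs 14, the TFII factors 7 and RNA polymerases I, II and III 5, 12 and 8. Among the strongest of all 3 replicates the TFII factors had 2, RNA polymerase II 4 and RNA polymerase III 0. Leaving out 1 replicate gave 20 to 23 in all, 9 to 10 for Mediator, 2 to 3 for the TAFs and 2 to 4 for the TFII factors. RNA polymerase I then had 1, RNA polymerase II 4 to 6 and RNA polymerase III 0 to 1. This setting also asked for the other 2 replicates, and all protein-coding genes fell too, from 22.4% to 15.3%, 16.5% and 16.5%. The stricter settings use fewer peaks or shorter distances by construction. The median signal of the strongest pooled peak was 86.7 in all. It was 153.8 within 5 kb (Mediator 175, TAFs 173, RNA polymerases I, II and III 121, 165 and 125), and within 500 bp it was 84.8 for Mediator and 114 for RNA polymerase III. With genes lacking a peak set to the lowest signal it was 75.0 in all, 84.8 for Mediator and 62.9 for the TFII factors. Relative signal moved by more than the replicate SD in 19 alternatives and not in 134; in all but 1 of the 19 the replicate was scaled by its mean in place of its median. No paired analysis was possible because there was 1 group. Depth is unknown, so what it limits was not measured.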

Other observations

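Among members with a head-to-head neighbour, the closest pairs were seldom bound. With the starts under 100 bp apart, 1 of 13 members was bound (7.69%, 95% Wilson interval 1.37 to 33.3), MED6, against 39.4% of all genes with such a gap. From 100 to below 200 bp the count was 5 of 11 (45.5%, against 38.4%), from 200 to below 500 bp 14 of 24 (58.3%, against 45.6%) and from 500 to 1000 bp 3 of 7 (42.9%, against 31.8%). The median gap of the paired members that were not bound was 151.5 bp, against 314 bp over all unbound genes of this kind. Of the 12 unbound close pairs, Taf10 and Taf10b are each other's neighbour and count as 2 of the 12. The gap classes were chosen after the data were seen, and no test was made.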
